A study of Mus musculus with 6 samples.

Results

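The nuclear genes for 43 proteins of the mitochondrial respiratory chain were followed in CD8- dendritic cells sorted from mouse spleen, among 27179 genes counted in all. The members were the rows whose Entrez gene ID is that of a named subunit: 25 genes of complex I, 4 of complex II, 7 of complex III, 6 of complex IV, and Cycs, the gene for cytochrome c, which carries electrons between complexes III and IV. The rule used gene identity and no measured value. All 43 were found by symbol and all 43 passed the filter on low counts. RNA-seq libraries of polyadenylated RNA came from C57BL/6 mice, 3 after CpG pretreatment and 3 labelled as having had no treatment, and each group carried the replicate numbers 2, 3 and 4. CpG DNA is sensed through Toll-like receptor 9. The series title calls the cells paralysed after a systemic inflammatory syndrome, so the comparison asked whether earlier exposure to CpG left a difference in respiratory chain transcripts. Cells were enriched, stained, sorted by FACS and lysed without culture. The age and sex of the mice, the dose and timing of CpG, and whether a sample was 1 mouse or a pool were not stated in any source at hand. The series text calls the samples biological replicates, and p-values here reflect the spread among them, whatever separates them.

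The respiratory chain passes electrons from NADH (through complex I) or succinate (through complex II) to ubiquinone, then through complex III and cytochrome c to complex IV, which reduces oxygen. Complexes I, III and IV pump protons, and ATP synthase uses the resulting gradient. In dendritic cells, strong activation through Toll-like receptors is known to shift energy production away from respiration and towards glycolysis, while resting cells rely more on mitochondrial respiration. Complexes I, III and IV also hold subunits encoded by mitochondrial DNA. No row of the count table could be matched to those genes by their usual names, so they were not analysed here. Whether the table holds them under other identifiers was not checked.

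Libraries held 7855500 to 8228140 counts, and no pair of libraries within a group agreed within sampling noise (chi-square per degree of freedom 3.17 to 19.7). Levels are given as CPM, counts scaled to a common library total, with TMM scaling. Genes of the labelled cell type were present. The 8 dendritic cell genes summed to 33213 to 39029 CPM without treatment and 30334 to 35464 CPM after CpG. Among them Itgax, the CD11c gene, lay at 1812 to 2275 CPM. The MHC class II invariant chain gene Cd74 lay at 19250 to 25391 CPM, and Cd8a at 1.23 to 4.69 CPM. Over the 6 libraries, 6 plasmacytoid dendritic cell genes summed to 118 to 157 CPM and 5 B cell genes to 42.0 to 59.6 CPM. Sums were 40.4 to 46.2 CPM for 6 T cell genes and 2.58 to 63.4 CPM for 6 neutrophil genes. Summed levels of 10 red blood cell genes were 43.4 to 115 CPM without treatment and 256 to 1118 CPM after CpG, where 5 of 7 tested genes rose (3 with the replicate block). Those of 13 red pulp macrophage genes were 637 to 800.2 and 399 to 545 CPM (5 of 13 fell, 11 with the block), and those of 17 cell cycle genes 1677 to 1715 and 2399 to 2895 CPM (3 of 17 rose, 16 with the block). Of 7 genes of CD8-positive conventional dendritic cells, summed at 163 to 201 and 169.1 to 247 CPM, 0 were called by edgeR (3 at an unadjusted p under 0.05), and Xcr1, Irf8 and Tlr3 rose with the block. The part of these cells and genes in the values below was not tested. In bulk samples fewer cells of a type and less RNA per cell cannot be told apart.

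Respiratory chain transcripts did not pass the test for a difference after CpG pretreatment. By edgeR's quasi-likelihood test with Benjamini-Hochberg adjustment over 11602 genes, 0 of 43 members were higher and 0 were lower at an adjusted p under 0.05, where 0.974% of all genes tested were called (0.474% higher and 0.5% lower). No member had an unadjusted p under 0.05 by that test, against 12.8% of all genes. The members' median standard error was larger, at 0.19 on the log2 scale against 0.15 for all genes tested. Their median absolute log2 fold change was 0.10, against 0.13 for all genes tested. The lowest adjusted p of a member was 0.606. DESeq2 and limma-voom also called 0 members, with 0 at an unadjusted p under 0.05 in each. With the replicate number as a block, 8.52% of all genes were called (4.73% higher and 3.78% lower) and again 0 members, with 3 at an unadjusted p under 0.05 (Ndufa3, Cox7b and Sdhb, named after their values were seen), where all genes gave 21.6%.

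The fitted differences were small and went both ways. Of the 43 log2 fold changes (positive where CpG-pretreated cells were higher), 22 were above 0 and 21 below, with a median of 0.01 and a range from -0.29 to 0.20. The median over all genes tested was -0.01. A p above the threshold does not show that the groups were alike, so the 95% intervals matter more here. For 43 of 43 members the interval lay inside a 2-fold change in either direction, and for 28 it lay inside a 1.5-fold change (39 with the replicate block). With the block the median half-width of an interval was 0.20 on the log2 scale, against 0.44 without it. The blocked intervals of Ndufa3 (-0.46 to -0.06), Cox7b (-0.48 to -0.04) and Sdhb (0.03 to 0.37) left out 0. All these intervals are per gene and not widened for the number of genes. The 2 groups overlapped in 42 members, and the exception was Ndufs1 (named after its values were seen), where 18.7% of all genes tested had groups that did not overlap.

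**Figure D1:**
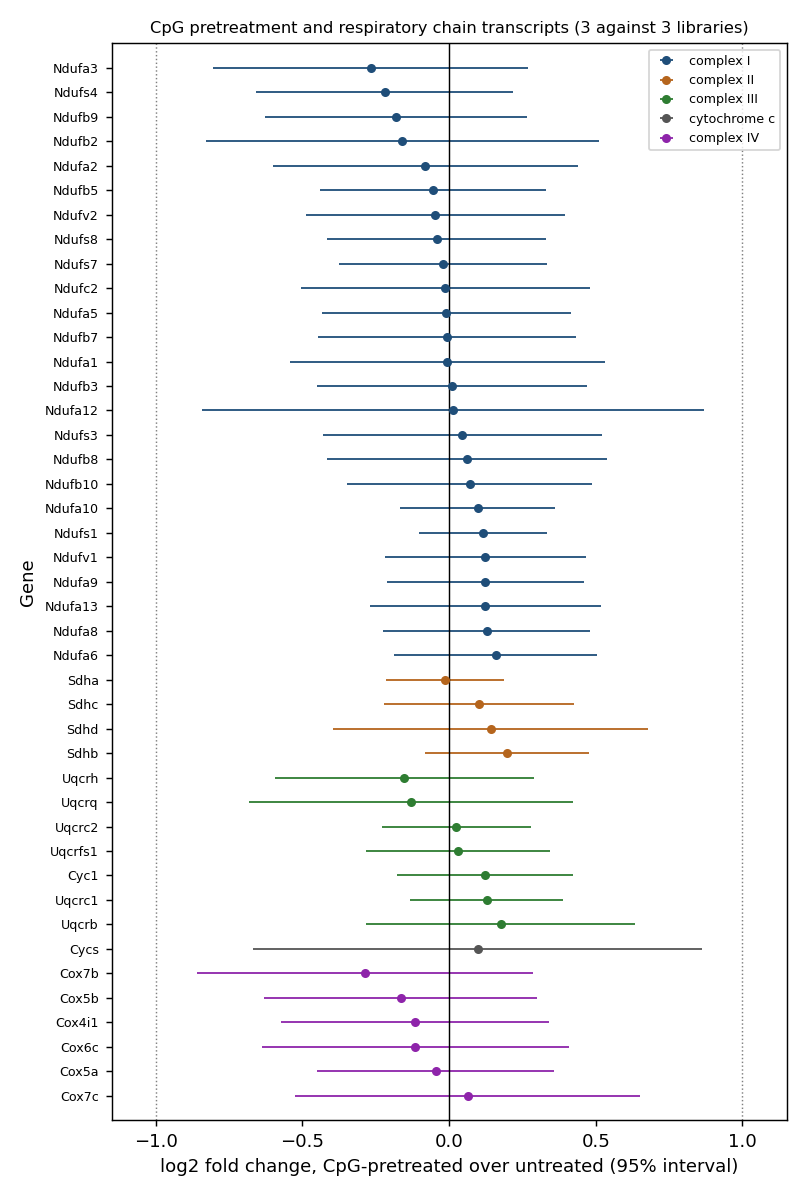
Fitted log2 fold change (positive where CpG-pretreated cells were higher) for each of the 43 genes (x axis), by complex (colour); points are edgeR estimates from 3 against 3 libraries and bars are 95% intervals. In this fit, which has no replicate block, every bar crosses 0 and stays between the dotted lines at a 2-fold change. With the block the intervals of Ndufa3, Cox7b and Sdhb do not cross 0.

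Complex I is the entry point for electrons from NADH, and its 25 members had a median log2 fold change of -0.01, with 12 above 0 and 13 below. Ndufa6 (Entrez 67130; GRCm38 chromosome 15, 82350139 to 82354291), an accessory subunit, was at 21.5, 16.6 and 17.8 CPM in the untreated libraries numbered 2, 3 and 4, and 23.5, 20.5 and 18.4 CPM in those of the same numbers after CpG. The groups overlapped, and its log2 fold change, 0.16 (SE 0.15, 95% interval -0.19 to 0.51, edgeR adjusted p = 0.787), was the highest of the complex. Ndufa3 (Entrez 66091; chromosome 7, 3617347 to 3620165), another accessory subunit and the shortest gene of the set at 349 bases, was at 59.0, 37.0 and 35.2 CPM without treatment, and 46.4, 32.8 and 29.7 CPM after CpG. The number 2 library was the highest of each group. Its log2 fold change, -0.27 (SE 0.23, interval -0.80 to 0.27, adjusted p = 0.754, and 0.108 with the block), was the lowest of the complex. Ndufs1 (Entrez 227197; chromosome 1, 63143592 to 63176822), the large iron-sulfur subunit, was at 76.3, 83.3 and 82.2 CPM without treatment, and 92.7, 84.7 and 84.6 CPM after CpG. Its groups stood apart by about 1 CPM, between 83.3 and 84.6, and the log2 fold change was 0.12 (SE 0.09, adjusted p = 0.730).

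Complex II, succinate dehydrogenase, also works in the tricarboxylic acid cycle and is encoded wholly in the nucleus. Its 4 members had a median log2 fold change of 0.12. Sdha (Entrez 66945; chromosome 13, 74322255 to 74350240), the flavoprotein that oxidises succinate, was at 312, 332 and 323 CPM without treatment, and 331, 306 and 321 CPM after CpG. All 6 values lay close together and its interval was the narrowest of the set. The log2 fold change was -0.01 (SE 0.09, interval -0.21 to 0.19, edgeR adjusted p = 0.976). Sdhb (Entrez 67680; chromosome 4, 140961271 to 140979198), the iron-sulfur subunit, was at 96.2, 76.6 and 80.3 CPM without treatment, and 107, 94.1 and 89.3 CPM after CpG. It was higher after CpG in each of the 3 pairs, while untreated 2 lay above CpG-pretreated 3 and 4. The log2 fold change was 0.20, the highest of all 43 (SE 0.12, interval -0.08 to 0.48, adjusted p = 0.606, and 0.153 with the block). The membrane anchor genes Sdhc and Sdhd had 0.10 and 0.14.

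Complex III moves electrons from ubiquinol to cytochrome c, and its 7 members had a median log2 fold change of 0.03. Uqcrb (Entrez 67530; chromosome 13, 66900576 to 66905350), a subunit that contributes to ubiquinone binding, was at 14.7, 9.38 and 9.83 CPM without treatment, and 14.1, 12.2 and 12.1 CPM after CpG, and untreated 2 was above all the others. Its log2 fold change was 0.18 (SE 0.20, interval -0.28 to 0.64, edgeR adjusted p = 0.834). Uqcrh (Entrez 66576; chromosome 4, 116066965 to 116075070), the acidic hinge subunit at the cytochrome c docking site, was at 102, 67.9 and 62.9 CPM without treatment, and 79.6, 59.6 and 70.1 CPM after CpG. Again untreated 2 was the highest, and the log2 fold change was -0.15 (SE 0.19, interval -0.59 to 0.29, adjusted p = 0.857). The core subunit genes Uqcrc1 and Uqcrc2, the Rieske iron-sulfur gene Uqcrfs1 and the cytochrome c1 gene Cyc1 had 0.13, 0.02, 0.03 and 0.12. Cycs (Entrez 13063; chromosome 6, 50562563 to 50566569) was counted at only 2.95, 1.38 and 2.09 CPM without treatment, and 2.82, 2.16 and 1.89 CPM after CpG, from 11 to 24 counts per library. The groups overlapped, and at this depth its interval ran from -0.67 to 0.86 (log2 fold change 0.10, SE 0.34, adjusted p = 0.963).

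Complex IV, cytochrome c oxidase, passes the electrons to oxygen. Its 6 members had the lowest median log2 fold change of the 4 complexes, -0.12, with 5 of 6 below 0, and the difference between complexes was not tested. Without untreated 2 the complex IV median was 0.15, and those of complexes I and III, at 0.215 each, also lay above 0; 6 members then had an unadjusted p under 0.05 by edgeR, as did 1680 of 11817 genes tested, and 0 members were called. Cox4i1 (Entrez 12857; chromosome 8, 120668225 to 120674209), the largest nuclear subunit and a regulatory one, was at 291, 182 and 175 CPM without treatment, and 228, 191 and 179 CPM after CpG. Without the 2 libraries numbered 2, these values run from 175 to 191 CPM. The log2 fold change was -0.12 (SE 0.20, interval -0.57 to 0.34, edgeR adjusted p = 0.914). Cox7b (Entrez 66142; chromosome X, 106015700 to 106022450), a small subunit, was at 58.9, 33.6 and 31.96 CPM without treatment, and 42.1, 31.2 and 28.7 CPM after CpG. Its log2 fold change of -0.29 was the lowest of all 43 (SE 0.25, interval -0.86 to 0.29, adjusted p = 0.753, and 0.146 with the block). Cox7c (Entrez 12867; chromosome 13, 86044798 to 86046795), another small subunit, was at 2.83, 2.25 and 2.83 CPM without treatment, and 2.45, 3.42 and 2.39 CPM after CpG, with no order between the groups (0.06, SE 0.26, adjusted p = 0.968). Medians of the complex IV members in pairs 2, 3 and 4 were -0.32, -0.07 and 0.07, and those of the complex I members -0.08, 0.11 and 0.02.

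Summed over members, complex I transcripts were at 1076 ± 219 CPM without treatment and 1083 ± 154 CPM after CpG (SD, n = 3 per group). Complex II gave 469 ± 6.35 and 483 ± 29.4 CPM, complex III 632 ± 88.7 and 650.3 ± 64.3 CPM, and complex IV 437 ± 126 and 403 ± 56.5 CPM. In complexes I, III and IV the difference between the group means was smaller than the SD of either group. In complex II it was smaller than the SD after CpG and larger than the SD without treatment. These SDs take no account of the replicate numbers. Complex II, with the longest transcripts of the 4 complexes (median 1232 bases), also had the smallest SD in both groups. Complex III, with a median nearly as long (1194 bases), did not share this. Sdha alone gave most of the complex II sums (means of 322 CPM without treatment and 319 CPM after CpG). A link between length and SD was not tested.

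Other genes of the pathway gave a similar account. Among the complex I, III and IV subunits that are not members, 0 of 11, 0 of 1 and 0 of 7 tested genes were called in either direction, and their medians were -0.02, -0.10 and -0.08. Among ATP synthase subunits and the inhibitor gene Atpif1 0 of 14 were called (median 0.01), and among assembly factors, which build the complexes and insert their cofactors, 0 of 39 (median -0.05). In those 5 lists the replicate block called 0 genes as well, and the edgeR fit gave 0 genes at an unadjusted p under 0.05. The largest absolute differences in them were those of Ndufab1 (0.38, SE 0.30), Uqcr10 (-0.10, SE 0.24), Ndufa4 (-0.29, SE 0.29), Atp5l (-0.56, SE 0.38) and Lyrm7 (-0.54, SE 0.31), with edgeR adjusted p values of 0.725, 0.941, 0.803, 0.652 and 0.597.

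In the tricarboxylic acid cycle list 0 of 13 genes were called, and 1 was lower with the block. That gene was Mdh2, mitochondrial malate dehydrogenase, which makes NADH for complex I. It was at 1625 ± 106 CPM without treatment and 1282 ± 137 CPM after CpG (SD, n = 3), a log2 fold change of -0.34 with an SE of 0.11 (by edgeR, adjusted p = 0.214, or 0.0136 in the blocked fit). The median of the list was 0.06. Of 10 tested regulators of mitochondrial biogenesis, such as Nrf1, Gabpa, Tfam and Esrra, 0 were called with or without the block (median -0.04), and the largest difference was that of the mitochondrial RNA polymerase gene Polrmt (-0.23, SE 0.11, adjusted p = 0.406). Of 6 genes linked to the respiratory switch of activated myeloid cells, Nos2, Acod1 and Ndufa4l2 lay under the filter at 0 to 0.634 CPM in each library. Nos2 encodes the inducible synthase of nitric oxide, which can block complex IV, and Acod1 makes itaconate, an inhibitor of complex II. The other 3 were not called: the uncoupling protein gene Ucp2 was at 1094 to 1201 CPM, Hif1a at 143 to 205 CPM, and Pdk1 had a value of -0.12 (SE 0.11, adjusted p = 0.786).

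The members did move together between replicate numbers. In 40 of 43 members untreated 2 was the highest untreated library, in 40 CpG-pretreated 2 was the highest CpG-pretreated library, and in 38 both held, as in 24.6% of all genes tested. An F test on the replicate number in the edgeR fit with treatment and number, added after these values were seen, called 22 of 43 members at an adjusted p under 0.05, where 14.7% of all genes tested were called. In all 22 the number 2 libraries were the higher ones, whereas 5.14% of all genes tested were called in that direction (596 of the 1711 called). By complex, 15 of 25 complex I members, 0 of 4 of complex II, 3 of 7 of complex III, 4 of 6 of complex IV and not Cycs were called. The pattern was not particular to the members. Of the tested complex I, III and IV subunits that are not members, 5 of 11, 1 of 1 and 4 of 7 were called (median differences 0.34, 0.57 and 0.48). In the ATP synthase list 10 of 14 were called (median 0.49), among assembly factors 6 of 39 (0.28) and in the tricarboxylic acid cycle list 1 of 13 (0.12). The labels do not say what a replicate number marks. The libraries with the number 2 exceeded the mean of numbers 3 and 4 by a median of 0.44 on the log2 scale over the members. The difference was 0.68 in Cox7b, 0.64 in Ndufa3, 0.51 in Cox4i1 and 0.47 in Uqcrh (adjusted p = 0.00317, 0.00228, 0.00880 and 0.0196), against 0.26 in Sdhb and 0.01 in Sdha (adjusted p = 0.112 and 0.992). Without untreated 2 the test called 1 member, where 3.12% of all genes were called.

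**Figure D2:**
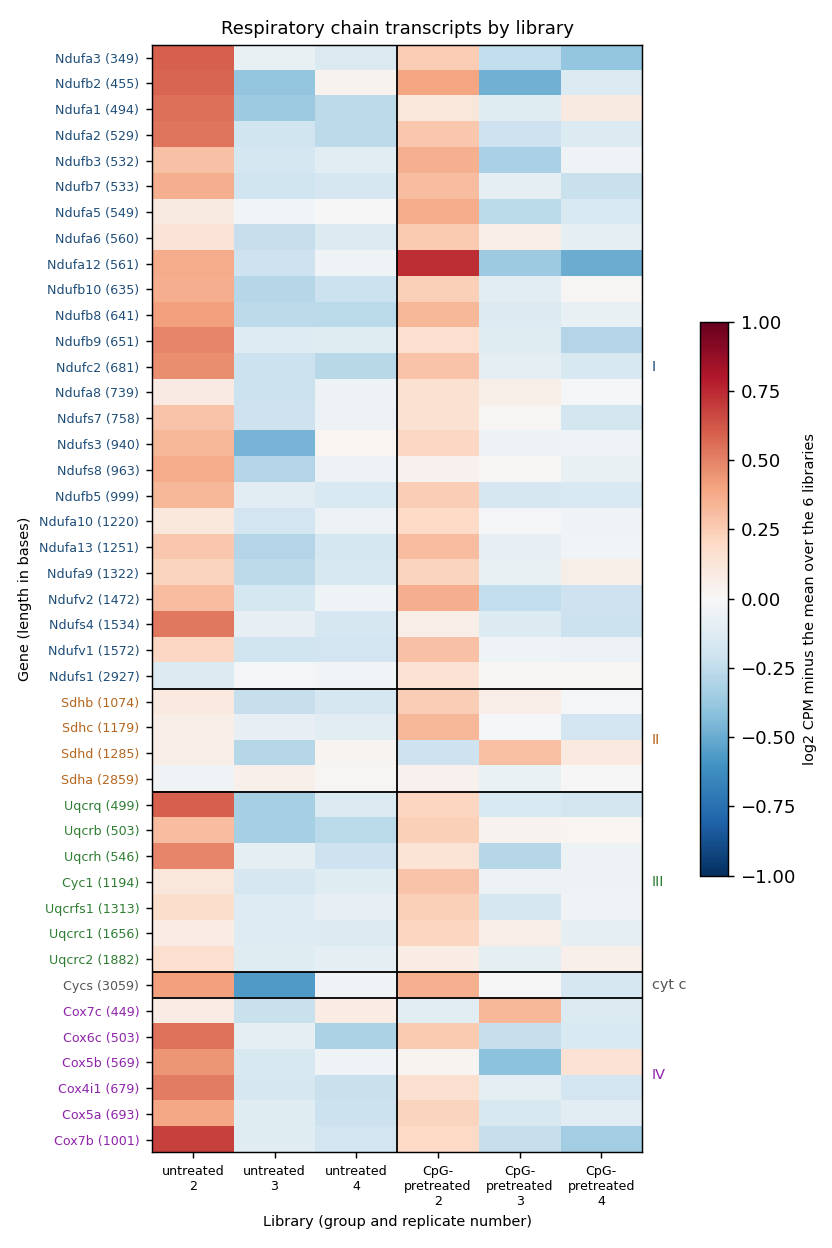
Log2 CPM minus the gene's mean over the 6 libraries (colour), for each gene with its length in bases (y axis, by complex and then length) and each library (x axis). Both libraries numbered 2 are mostly red and the other 4 mostly blue. The long genes Sdha and Ndufs1 are pale, while Cycs (the longest, 3059 bases) and Ndufv2 (1472 bases) are not.

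Transcript length moved with this pattern. The members were short, with a median length in the count table of 739 bases against 2794 for all genes tested, and 26 of 43 were under 1000 bases, as were 8.57% of all genes. In both number 2 libraries short genes stood higher across the whole table: the Spearman correlation across genes of length with the number 2 difference was -0.68 over the 11602 genes, and -0.47 over the 43 members (genes share the libraries and are not independent replicates, so no p is given). Of the 26 members under 1000 bases 15 were called for the replicate number, with a median difference of 0.48. All tested genes of that length had a median of 0.38, and 26.9% of them were called. Of the 17 longer members 7 were called, with a median of 0.30. All 10608 tested genes of 1000 bases or more had a median of -0.02, and 13.6% of them were called. Lengths were not matched within either class. The longer members ran from 1001 bases (Cox7b) to 3059 bases (Cycs), while the other class has no upper bound. When a smooth trend with length was taken out of each library, 0 of 43 members were called for the replicate number, where 2.3% of all genes were, and the members' median difference was 0.09. The trend is fitted on the same libraries, the members among them. With that correction the treatment comparison called 0 members as well, with and without the block.

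**Figure D3:**
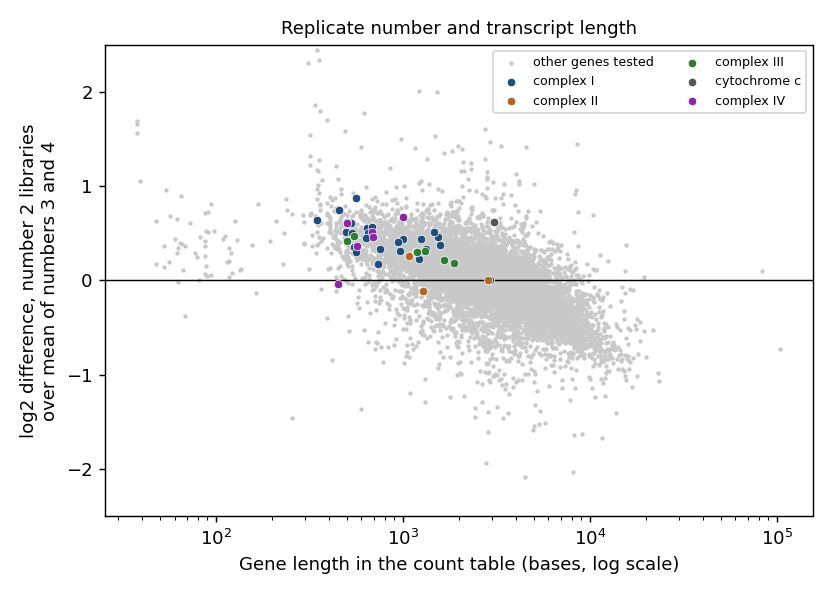
Difference between the libraries numbered 2 and the mean of those numbered 3 and 4 (y axis, log2, from the edgeR fit with treatment and number) against gene length (x axis, bases, log scale); grey points are all genes tested, of which 2 lie beyond the axis, and coloured points the 43 genes by complex. Of the coloured points 41 of 43 lie above 0. At the short end the grey cloud is also above 0. At 1000 bases or more the members' median is 0.30, against -0.02 for all genes tested.

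Levels differed widely between subunits of a single complex. Given per length, as CPM per kilobase over the 6 libraries, the median member was at 53.7 against 12.4 for all genes tested. Cox4i1 was the highest at 306, and the highest of complexes I, II and III were Ndufa3 at 115, Sdha at 112 and Uqcrh at 135. The lowest was Cycs at 0.724, followed by Sdhd at 3.04, Cox7c at 6.00 and Ndufa12 at 6.85. Sdhd and Sdha sit in the same enzyme. Many respiratory chain genes have near-identical copies elsewhere in the genome, often processed pseudogenes, and no source at hand says how reads that match several places were counted. For 9 members, GENCODE M21 holds another gene whose transcript matches at least 80% of the coding sequence at 95% identity or more: Ndufa12, Ndufb3, Ndufs3, Uqcrb, Cycs, Cox5b, Cox6c, Cox7b and Cox7c. Their median was 23.96 CPM per kilobase (range 0.724 to 92.5), against 59.8 (range 3.04 to 306) for the 34 without one. Sdhd had no such copy. At a looser bar, 90% identity over 50% of the coding sequence, 15 members had a related gene, these 9 among them. Ndufa1 and Uqcrh were among the others, and Sdhd again had none. The counted levels of the 9 genes are uncertain, and those of the others with a related gene may be as well. Whether reads shared with copies differed between libraries was not tested.

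**Figure D4:**
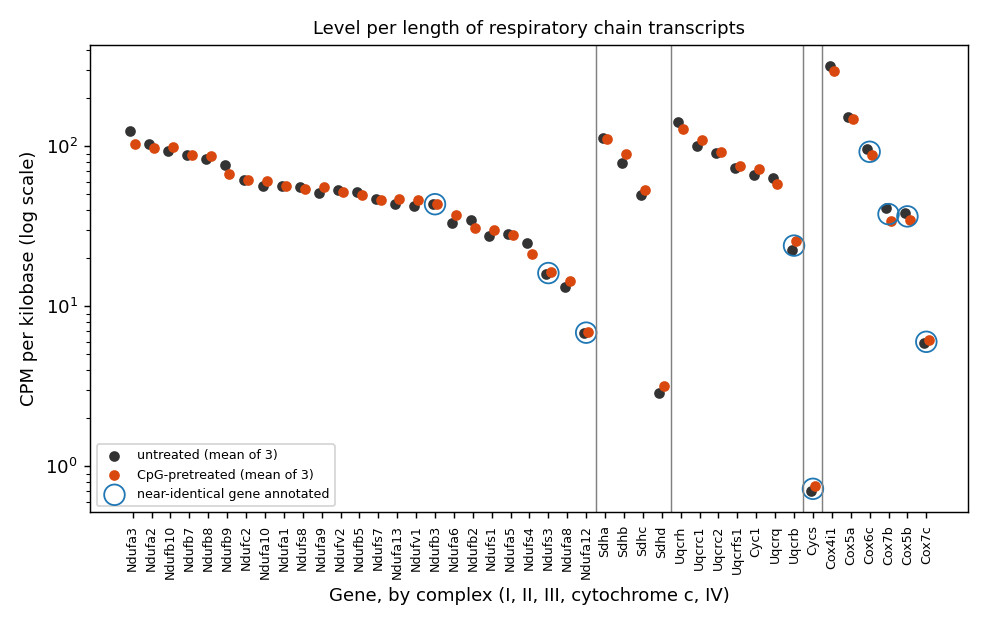
Mean CPM per kilobase (y axis, log scale) of each gene (x axis, by complex, highest first) in untreated (black) and CpG-pretreated (orange) cells, 3 libraries each; blue rings mark the 9 genes with a near-identical gene in the annotation. Cycs, Cox7c and Ndufa12 carry rings at the low end of their complexes, while Sdhd is low without one.

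Copies are shown for Cycs and Cox7c, whose low counts limit what can be said about them. The first 120 bases of each coding sequence are given beside those of copies, on the coding strand, from GENCODE M21 (GRCm38), with capitals where Cox7c and Gm10012 differ. Of the 4 copies of Cycs, Gm10053 is shown, annotated as a protein-coding gene (chromosome 19, 24875686 to 24876631), which matched all 315 coding bases. Cox7c has 2 copies: the processed pseudogene Gm12338 (chromosome 11, 75599763 to 75599954), which matched all 189 coding bases, and the transcribed processed pseudogene Gm10012 (chromosome 17, 25901856 to 25902227), with 2 differences. None of these 3 copies was found by symbol among the rows of the count table, of which 1904 matched no symbol. Over these bases Gm12338 reads as Cox7c does, so it is not printed again.
Cycs: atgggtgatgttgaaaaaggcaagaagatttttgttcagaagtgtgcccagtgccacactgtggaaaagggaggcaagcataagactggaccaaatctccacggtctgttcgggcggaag
Gm10053: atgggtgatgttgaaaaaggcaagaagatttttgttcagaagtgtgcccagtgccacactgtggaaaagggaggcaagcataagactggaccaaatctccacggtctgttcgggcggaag
Cox7c: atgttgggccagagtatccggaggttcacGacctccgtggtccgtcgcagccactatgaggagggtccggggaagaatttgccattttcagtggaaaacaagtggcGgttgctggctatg
Gm10012: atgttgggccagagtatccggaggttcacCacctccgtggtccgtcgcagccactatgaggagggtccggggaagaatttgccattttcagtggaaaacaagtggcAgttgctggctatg

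The genes lie on 16 chromosomes. In GENCODE M21, 12 of the 43 (27.9%) had a protein-coding gene starting on the opposite strand within 500 bases upstream, against 6.16% of all protein-coding genes, among them Sdhd with Timm8b and Uqcrh with Lrrc41. In 6 members over 10% of the exon bases were shared with another gene, and without a stated strand setting reads there cannot be assigned for certain.

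Promoters of respiratory chain genes are known for sites of the activators NRF1, GABP and YY1. RefSeq promoters (GRCm38.p6, 250 bases before to 50 after the gene's start) were found for 33 members. Those of Cox4i1, Cox6c, Cyc1, Ndufa2, Ndufb9, Ndufs1, Sdhc, Uqcrb, Uqcrc2 and Uqcrq are not shown. Both strands were searched for 3 strings of letters, and none was required to be free of overlap with another. The NRF1 string, GCGCA and GCGC with any 1 base between them, was in 6 of 33 members (18.2%) and in 5.19% of all 27025 genes with such a promoter, or 7.42% of the protein-coding genes of the count table. The GABP string CCGGAAG was in 6 of 33 (18.2%), against 9.93% and 13.3%. The YY1 string AAGATGGCG was in 3 of 33 (9.09%), against 1.64% and 2.22%. A match is a string of letters and not a shown binding site, and its absence says nothing about the factor.

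Windows of 30 bases around some of these matches are shown for members with different outcomes in the replicate-number test: Uqcrh, Ndufb7 and Ndufa9 were called, and Sdha, Sdhd, Sdhb and Uqcrc1 were not. They read 5′ to 3′ on the gene's strand, with the match in capitals, at chr13:74350276-74350305 (minus), chr9:50603909-50603938 (minus), chr9:108936668-108936697 (plus), chr4:140961266-140961295 (plus), chr4:116075062-116075091 (minus), chr8:83566727-83566756 (plus) and chr6:126849096-126849125 (minus) of GRCm38 in the order given. Sdha holds 3 NRF1 matches, of which the middle one is shown. In Uqcrh the GABP string lies on the other strand, and in Uqcrc1 the NRF1 match reads on both strands.
Sdha, NRF1: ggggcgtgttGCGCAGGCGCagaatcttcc
Sdhd, NRF1: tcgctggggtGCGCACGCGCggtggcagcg
Uqcrc1, NRF1: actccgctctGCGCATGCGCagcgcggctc
Sdhb, GABP: gctcggagaaaCCGGAAGcggccttccact
Uqcrh, GABP: agtatgccgcaCTTCCGGccaggtcgccgg
Ndufb7, GABP: gcctagatgacCCGGAAGacactgaagggg
Ndufa9, YY1: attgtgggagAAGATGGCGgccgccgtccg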

How the data were processed

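Messenger RNA was measured in 6 libraries, 3 per group. The authors deposited raw read counts for each Entrez gene, as whole numbers, with its length. CASAVA, featureCounts and mm10 are named in the submitters' processing notes. No source at hand gives the aligner, the strand setting or the handling of reads with several matches. The counts of all 6 sample files equalled those of the series table. Symbols and positions came from RefSeq GRCm38.p6 (25275 of 27179 IDs matched; the others held 0.327% of counts). GENCODE M21 and blastn 2.17.0 gave copies and overlaps.

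Counts were fitted in R 4.3.3 with edgeR 4.0.16 (filterByExpr with a minimum count of 10 and total of 15, TMM, robust quasi-likelihood F test, treatment alone, two-sided), with adjustment over all 11602 genes tested. The SE is the size of the log2 fold change over the square root of F, and intervals use it with the fitted degrees of freedom. On simulated data for this comparison, 11602 genes, 83 of 100 genes changed 2-fold and 96 of 100 changed 4-fold were recovered. The changed genes were drawn at random, and the simulated libraries held no shared difference by replicate number and no trend with length. No change under 2-fold was simulated, so recovery of small changes in the members was not measured. Alternatives used DESeq2 1.42.0, limma 3.58.1, other scalings and filters, a length trend per library (lowess, span 0.3, prior count 2, log2 CPM), and each library left out.

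Same-numbered libraries deviated together from their group means across all genes tested, with correlations of 0.48, 0.25 and 0.31 for numbers 2, 3 and 4. Unequal numbers gave -0.39 to 0.07, so over all genes the numbers met the bar for pairs. Over the members alone the same-numbered correlations were 0.369, 0.152 and 0.092. Unequal numbers ran from -0.362 to 0.369 there, the highest being untreated 4 with CpG-pretreated 3. Among the members, same-numbered libraries thus did not stand apart from all unequal ones. The pairing rests on the data, since no label says what a number marks. The reported fits have no block. The fit with the number as a block is given beside them where it changes a call or a count, or moves an interval off 0.

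Members and lists were chosen with earlier results of these data known. Named with values in every library were members called with or without the block (there were none), the highest and lowest fold change and the highest level per kilobase in each complex, and Cycs. Ndufs1 was added after its values were seen. Of the other pathway lists, called genes and the largest difference were named. The lists of cell markers are given as sums and counts, and Itgax, Cd74 and Cd8a were picked from them.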

Additional observations from a re-analysis of the deposited data

How the results depend on the processing

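In all 17 alternatives, the replicate block among them, 0 members were called, and the lowest adjusted p of a member was 0.0578 (Sdhb, block with length correction). The blocked fit changed no member's call, and it called 988 genes in all and 1 other pathway gene, Mdh2. With block and length correction these counts were 1150 and 2 (Mdh2 and Atp5e). All genes called numbered 366 with the length correction alone, 426 by DESeq2, 41 by limma-voom and 189 without a filter. With a library left out they numbered 0 to 386 (0 without CpG-pretreated 2 or 3, where edgeR gave 1065 and 1107 genes at an unadjusted p under 0.05), and other pathway genes called 0 to 1 (Ppargc1a, without CpG-pretreated 4).

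The members' median log2 fold change ran from -0.03 to 0.07 with all libraries kept and from -0.11 to 0.19 with one left out, the highest without untreated 2. Leaving out a library moved the complex III median between -0.0297 and 0.2149, again highest without untreated 2. The sign of 32 members differed from the reported one in at least 1 alternative.

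Members called for the replicate number were 0 with the length correction, with a median difference of 0.0886, and 21 to 27 under the other settings with all libraries. With a library left out they were 1 (without untreated 2) to 29. These alternatives were chosen after seeing the data. Depth limits Cycs, Cox7c, Sdhd and Ndufa12 most.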
